A study of Mus musculus with 10 samples.

Results

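The miR-10 and miR-196 microRNAs are encoded inside the Hox gene clusters, and their mature arms were followed here on 10 mouse miRNA microarrays. Rows of the arrays were taken when the probe name held the stem mmu-miR-10a, mmu-miR-10b, mmu-miR-196a (any copy number) or mmu-miR-196b, on either arm. This gave 9 of the 1892 miRNAs on the array, each with 2 spots. The 5 arrays titled T-C cell have the source label Col-/- and files headed as treated. The 5 arrays titled Control cell have the source label Control Col and files headed as control. All 10 samples are male mouse samples described as sle liver and carry the same protocol text, which names liver cell culture and a treatment of 0.5 mg TN-CF for 100000 T-C cells in a dish over 24 hours, and a control. The series' design text writes TB-CF, and none of the abbreviations is explained. The comparison therefore sets treated T-C cells against control cells without separating treatment from source. Array numbers also stand in the file headers, and the control cell numbers run together, with T-C cell replicate 1 below them and the other 4 T-C cell arrays above. What the numbers count is not given, so anything that followed them cannot be told apart from the groups. No label tells separate animals or separate dishes apart within a group, so p-values describe variation among these 5 and 5 samples, part or all of which may be technical.

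Hox genes lie in clusters and set position along the body axis, those at one end of a cluster acting in head-ward segments and those at the other end in tail-ward segments. miR-10 genes lie beside the Hox4 genes and miR-196 genes beside the Hox9 genes, and both miRNAs are known to repress Hox mRNAs. In many cells these miRNAs keep the positional pattern of the tissue they came from. Each hairpin yields a 5p and a 3p arm. The 5p arm is the usual guide of both families, loaded into the silencing complex, and the 3p arm is usually the less abundant passenger.

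The mature sequences are shown because members of a family differ by few bases, which bears on how well the probes tell them apart. Each was read from the array files and was the same as the RefSeq sequence (GRCm38.p6). Capitals mark the seed, bases 2 to 8.
mmu-miR-10a-5p: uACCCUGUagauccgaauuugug
mmu-miR-10b-5p: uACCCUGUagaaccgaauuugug
mmu-miR-196a-5p: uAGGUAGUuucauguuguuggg
mmu-miR-196b-5p: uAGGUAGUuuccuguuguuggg
mmu-miR-196a-1-3p: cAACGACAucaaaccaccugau
mmu-miR-196a-2-3p: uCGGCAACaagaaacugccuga
mmu-miR-196b-3p: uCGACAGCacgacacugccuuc
mmu-miR-10a-3p: cAAAUUCGuaucuaggggaaua
mmu-miR-10b-3p: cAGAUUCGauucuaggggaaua

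The 5p arms of miR-10a and miR-10b share a seed that no other miRNA on the array has, and differ by the substitution U12A, counted from the 5′ end of miR-10a-5p. The 5p arms of miR-196a and miR-196b likewise share a seed of their own and differ by A12C. Signal shared between such pairs cannot be told apart on the array. The 3p arms have 5 different seeds.

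miR-196a-5p is made from a pair of hairpins with different 3p arms, shown here because the probes of the 3p arms differed widely in brightness. Capitals mark the 5p and the 3p arm (RefSeq, GRCm38.p6, plus strand).
Mir196a-1, chr11:96265164-96265265: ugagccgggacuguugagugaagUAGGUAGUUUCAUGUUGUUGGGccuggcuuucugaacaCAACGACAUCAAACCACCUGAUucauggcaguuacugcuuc
Mir196a-2, chr15:102973350-102973434: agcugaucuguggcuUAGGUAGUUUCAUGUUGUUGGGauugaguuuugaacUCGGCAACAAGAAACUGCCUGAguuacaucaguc

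By the GENCODE annotation of the same build, Mir196a-1 lies outside other annotated genes in the Hoxb cluster, with the 3p arm (chr11:96265225-96265246) 6211 bases from Hoxb9. The miR-196a-5p copy of Mir196a-2 (chr15:102973365-102973386) lies between Hoxc10 and Hoxc9 in the Hoxc cluster, in an intron of a long Hoxc5 gene model. miR-196b-5p (chr6:52230129-52230150, minus strand) lies in an exon of the Hoxa9 gene model, 1047 bases from Hoxa10. miR-10a-5p (chr11:96317186-96317208, plus strand) lies between Hoxb5 and Hoxb4, 1059 bases from Hoxb4 and outside other annotated genes. miR-10b-5p (chr2:74726074-74726096, plus strand) lies in an intron of Hoxd4 and of Hoxd3.

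The arrays differed in background. Detection required a miRNA's mean spot intensity to lie more than 3 SD above the average of the 16 blank spots on the same array, and this limit ran from 64.0 (control cell replicate 5) to 474 (T-C cell replicate 3). Between 189 and 1314 miRNAs were detected per array, fewest on T-C cell replicate 3 and most on control cell replicate 5. The 2 spots of a miRNA correlated at 0.926 (T-C cell replicate 3) to 0.993 on the log2 scale. miR-122-5p, the defining miRNA of hepatocytes, was above the limit on 1 of 10 arrays, as was miR-122-3p, although the labels name liver. The other 3 miRNAs of the hepatocyte list, miR-192-5p, miR-194-5p and miR-148a-3p, which other tissues such as the gut also express, were detected on all 10 arrays. Of 24 tested markers in 8 cell-type lists, 1 was called higher in T-C cell samples, miR-150-5p of lymphocytes (log2 difference 0.86), and 2 had an unadjusted p under 0.05 in limma. Over all 476 tested miRNAs 7.77% were called and 18.3% had an unadjusted p under 0.05. Fewer cells of a type and less of a miRNA per cell cannot be told apart in such samples.

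Raw intensities, a linear scanner brightness, differed widely between the members. miR-196a-1-3p was among the brightest probes, from the 94.8th to the 99.2nd percentile of the array's miRNAs. The 5p arms of miR-10a and miR-10b lay between the 89.2nd and the 96.2nd percentile. miR-196a-5p lay between the 78.0th and 88.2nd and was detected on 9 of 10 arrays, and miR-196b-5p was detected on 7. The other 3p arms were detected on 0 to 4 arrays. These ranges overlap, and on T-C cell replicates 1 and 3 both miR-10 guide arms were brighter than miR-196a-1-3p. Brightness also depends on the probe, so it does not order the miRNAs by abundance.

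**Figure D1:**
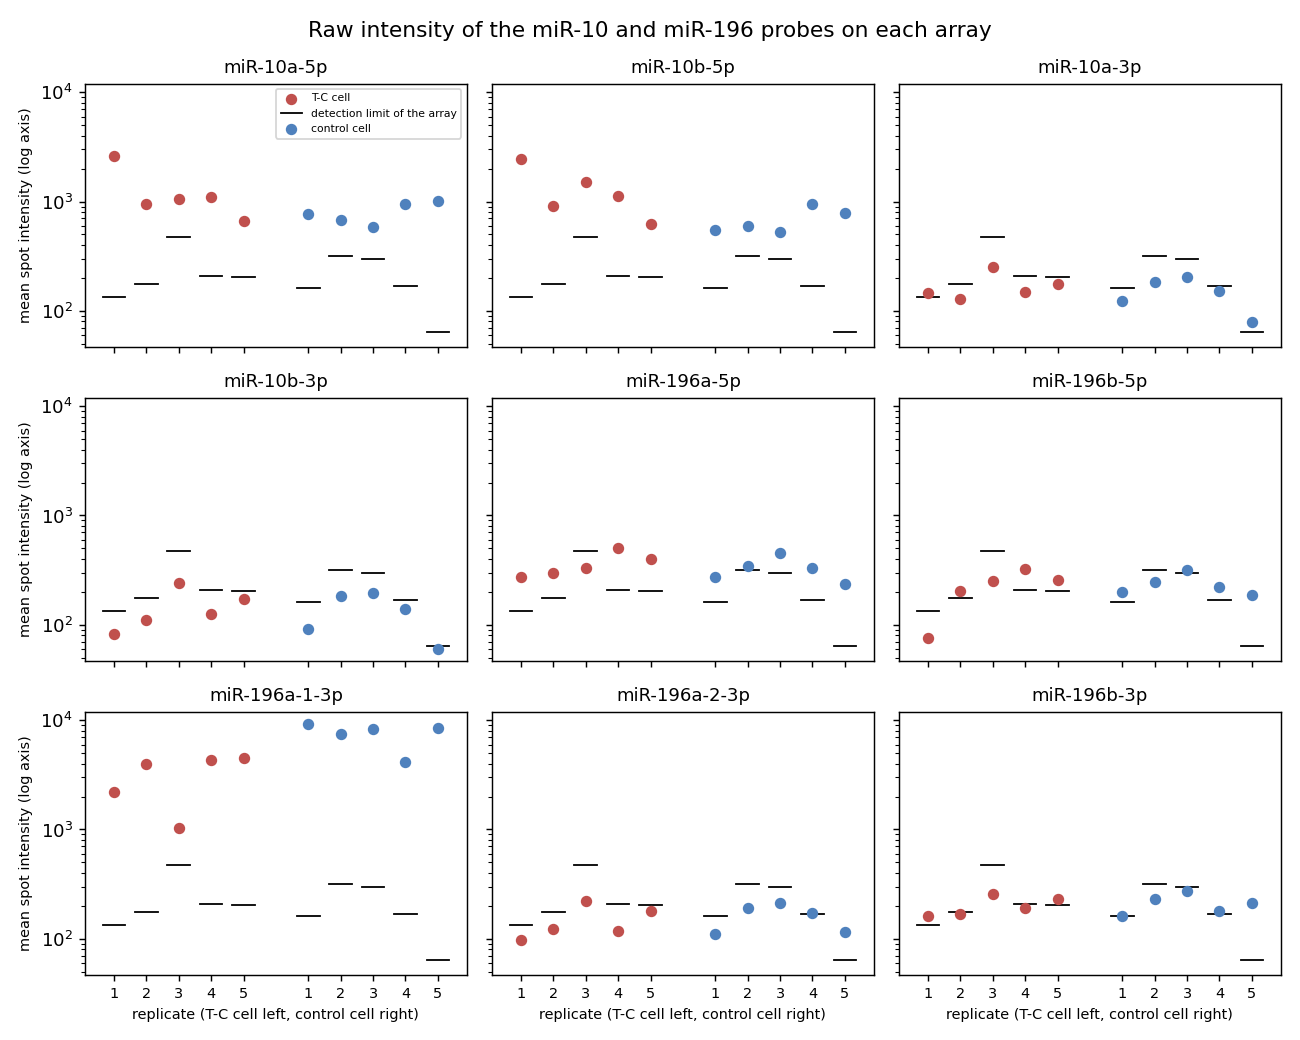
Raw intensity of each miR-10 and miR-196 probe (vertical, log axis, mean of 2 spots) by replicate, T-C cell arrays in red on the left and control cell arrays in blue on the right of each panel, with each array's detection limit as a black bar. The 5p arms of miR-10a and miR-10b and miR-196a-1-3p lie above the limit on all 10 arrays, and miR-10b-3p lies below it on all 10.

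Of the 9 members, 5 passed the filter of detection on at least 5 arrays and were tested, and 1 of these changed, miR-196a-1-3p, which fell. Over all tested miRNAs 37 of 476 changed at an adjusted p of 0.05, or 7.77%, with 30 (6.3%) lower and 7 (1.47%) higher. With quantile normalization the split was 33 lower and 14 higher, and with median centring 13 lower and 1 higher. A count of 1 in 5 members is too small to be read against these shares. The median difference of the 5 tested members was −0.04, against 0.02 over all tested miRNAs. Members whose 2 groups were fully apart numbered 0 of 5, where 3.78% of all tested miRNAs had groups that did not overlap. At an unadjusted p of 0.05, 2 of the 5 members passed in limma, miR-196a-1-3p and miR-10b-5p, where 18.3% of all tested miRNAs did.

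miR-196a-1-3p is the 3p arm of the Hoxb-cluster copy of miR-196a. Whether it acts as a passenger in these samples, and whether its signal came from this miRNA alone, was not tested. Raw intensities of the T-C cell samples were 2197, 3966, 1034, 4352 and 4495 (replicates 1 to 5). Those of the control cell samples were 9335, 7568, 8353, 4167 and 8579. Of the control cell samples 4 lay above every T-C cell sample, and control cell replicate 4 lay below T-C cell replicates 4 and 5. After normalization the level, on the scale of log2(intensity + 50), averaged 11.42 ± 0.84 in the T-C cell group and 12.81 ± 0.42 in the control group (SD, n = 5 each). It fell 2.62-fold (log2 difference −1.39, 95% interval −2.18 to −0.60, limma adjusted p = 0.0419), and 4 of 5 T-C cell samples lay below all control cell samples. T-C cell replicate 5 (12.35) lay above control cell replicate 4 (12.07).

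The size of that difference rested in part on T-C cell replicates 1 and 3, which had the lowest levels (10.86 and 10.27). Without both, the log2 difference was −0.77 (95% interval −1.35 to −0.19, limma adjusted p = 0.143). The call also ended when any 1 of 7 arrays was left out. These were T-C cell replicates 1, 3 and 4 (log2 differences −1.21, −1.10 and −1.44) and control cell replicates 1, 2, 3 and 5 (−1.35, −1.35, −1.34 and −1.37), with limma adjusted p from 0.0597 to 0.103. The sign was negative and the unadjusted p stayed under 0.05 in each of the 25 alternatives run. T-C cell replicate 3 was also the array with the highest detection limit (474) and the fewest miRNAs detected (189). With array weights the log2 difference was −1.21 (limma adjusted p = 0.0325).

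**Figure D2:**
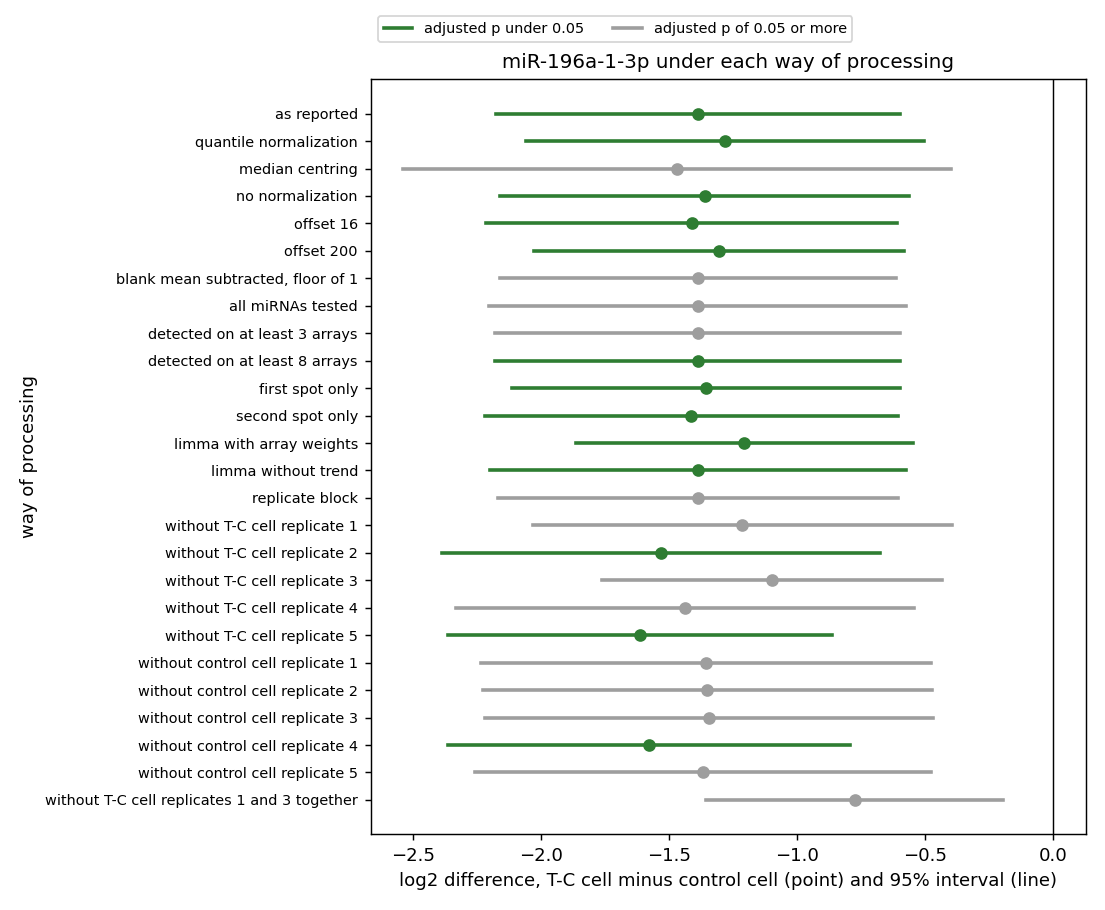
Log2 difference of miR-196a-1-3p, T-C cell minus control cell (horizontal; points with 95% intervals as lines), for the reported processing and each alternative (vertical), green where the limma adjusted p was under 0.05. All points lie between −1.61 and −0.77, and the 13 grey ones did not pass the threshold.

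The 5p arm, which Mir196a-1 has in common with Mir196a-2, did not pass the test. miR-196a-5p, the guide arm, had a log2 difference of −0.04 (95% interval −0.45 to 0.38). On every array miR-196a-1-3p was brighter than miR-196a-5p, by 2.80 ± 0.69 on the log2 scale among T-C cell arrays and 4.15 ± 0.46 among control arrays (SD, n = 5 each). This contrast of the arms was chosen after the values were seen and was not tested. The miR-196a-5p signal can come from either hairpin, so the contrast does not compare the arms of a single hairpin. The 3p arm of the Hoxc-cluster copy, miR-196a-2-3p, had raw intensities of 97.6 to 223 in T-C cell and 110.3 to 214 in control cell samples. It lay below the limit on 8 of 10 arrays. The arrays above it were control cell replicates 4 and 5. With all miRNAs on the array fitted, the log2 difference of miR-196a-2-3p was −0.22 (95% interval −0.46 to 0.02).

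The miRNAs whose levels followed miR-196a-1-3p most closely over the 10 arrays were miR-467b-3p (Pearson r = 0.97), miR-467d-3p (0.97) and miR-7014-3p (0.96). These were the highest 3 among all other tested miRNAs. The values share the arrays and the difference between the groups, and without the 2 arrays farthest from the median r was 0.95 to 0.97. Log2 differences of these miRNAs were −0.91, −0.98 and −1.23 (limma adjusted p = 0.0668, 0.0480 and 0.0419). Their sequences are shown with that of miR-196a-1-3p because they have base composition in common. Capitals mark ACC, searched on the mature strand only.
miR-196a-1-3p: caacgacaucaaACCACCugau
miR-467b-3p: auauacauacacacACCaacac
miR-467d-3p: auauacauacacacACCuacac
miR-7014-3p: ccucuuucauACCaACCacag

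miR-196a-1-3p consists to 77.3% of A and C, more than 98.3% of the miRNAs on the array, whose median was 45.5%. ACC is found in 20.5% of the miRNAs on the array and in 124 of the 476 tested. Of those 124, 28 fell, or 22.6%, and of the 352 without ACC 2 fell, or 0.568%. The excess of ACC among miRNAs that fell was noticed in these data earlier and is given as a description. Of the tested members with ACC, only miR-196a-1-3p passed the adjusted threshold. miR-10b-5p holds ACC at 2 places, as miR-196a-1-3p does, and had a log2 difference of 0.70 (limma adjusted p = 0.185). miR-10a-5p holds it once and had 0.43 (limma adjusted p = 0.460). Neither passed, so their direction is not established. These miR-10 arms are less rich in A and C than miR-196a-1-3p, with 47.8% in miR-10b-5p and 43.5% in miR-10a-5p. The miRNAs that fell had a median of 69.8% A and C, against 47.8% over all tested miRNAs. The part of ACC or of base composition in the fall of miR-196a-1-3p was not tested.

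The miR-10 guide arms had higher means in the T-C cell samples, and neither passed the adjusted threshold. miR-10b-5p, of the Hoxd cluster, had raw intensities of 2427, 905, 1497, 1120.1 and 622 in T-C cell samples. In control cell samples it stood at 545, 596, 522, 948 and 778. T-C cell replicates 1, 3 and 4 lay above every control cell sample, and replicates 2 and 5 lay within the control range. After normalization replicates 1, 2 and 3 lay above every control cell sample. The normalized level was 10.22 ± 0.58 against 9.52 ± 0.38 (SD, n = 5 each). The log2 difference was 0.70 (95% interval 0.08 to 1.32, limma adjusted p = 0.185). As a ratio this is 1.63 (1.06 to 2.50). Without T-C cell replicates 1 and 3 the log2 difference was 0.31, and without either one alone 0.58 and 0.52.

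miR-10a-5p, of the Hoxb cluster, had raw intensities of 2634, 949, 1044, 1102 and 668 in T-C cell samples. In control cell samples they were 762, 681, 586, 957 and 1015. T-C cell replicate 1 stood far above the other 9 arrays, replicates 3 and 4 lay slightly above the highest control cell sample, and replicates 2 and 5 lay within the control range. After normalization replicates 1, 2 and 3 lay above every control cell sample, and replicates 4 and 5 lay within the control range. The log2 difference was 0.43 (95% interval −0.12 to 0.97, limma adjusted p = 0.460), with levels of 10.17 ± 0.48 and 9.74 ± 0.36 (SD, n = 5 each). The interval covers a ratio from 0.920 to 1.96, so it excludes neither no change nor a rise of up to 1.96-fold. Without T-C cell replicate 1 the log2 difference was 0.26, and without replicates 1 and 3 together 0.13.

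miR-10a-5p and miR-10b-5p moved together from array to array. Each was the other's nearest in level over the 10 arrays (Pearson r = 0.92, Spearman rho = 0.90), and without the 2 arrays farthest from the median r was 0.90. Their probes differ by a single base, so shared signal was not tested. After each other, miR-10a-5p was followed most closely by miR-1903 (r = 0.85) and miR-215-5p (0.82), and miR-10b-5p by miR-191-5p (0.86) and miR-6395 (0.83). Without the 2 farthest arrays these were 0.72 and 0.75 for miR-10a-5p, and 0.51 and 0.59 for miR-10b-5p.

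**Figure D3:**
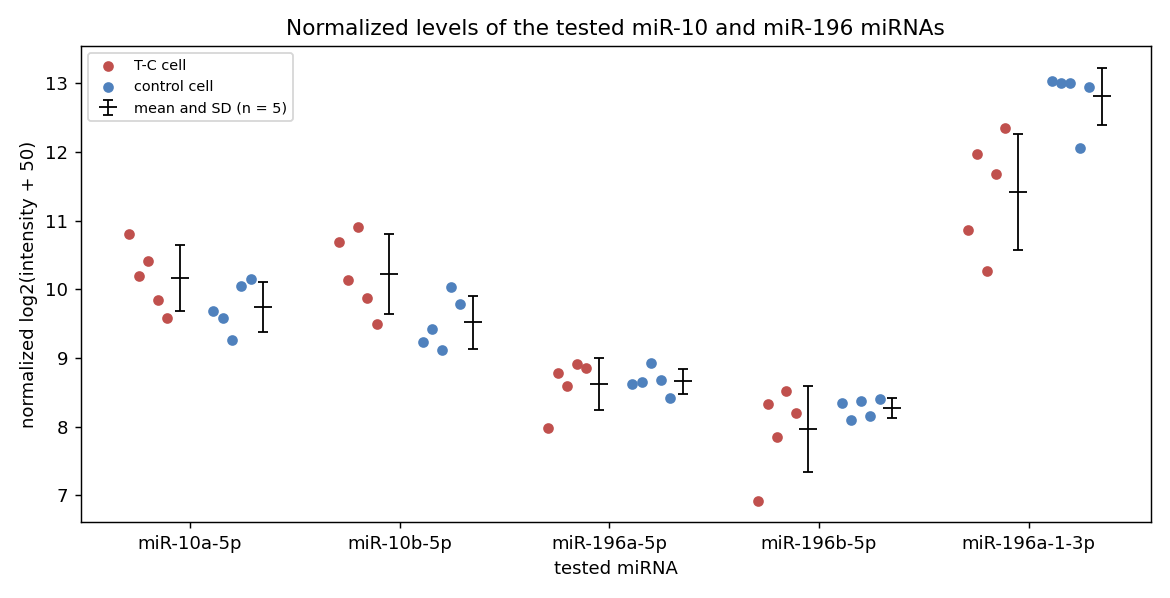
Normalized level, log2(intensity + 50), of the 5 tested members (vertical) by miRNA (horizontal), with T-C cell samples in red, control cell samples in blue, and the mean and SD of 5 samples beside each group. miR-196a-1-3p shows the widest gap between the group means (11.42 against 12.81), and all 5 members overlap between the groups.

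Neither miR-196 guide arm passed the test, and T-C cell replicate 1 had the lowest normalized level of both. miR-196a-5p had raw intensities of 271, 297, 328, 500.1 and 402 in T-C cell samples. The control cell values were 276, 342, 456, 331 and 236. The groups overlapped over nearly their whole range, and T-C cell replicate 3 was below its array's limit. The level was 8.62 ± 0.38 against 8.66 ± 0.18 (SD, n = 5 each, limma adjusted p = 0.938), and the interval of the difference allows changes of up to 1.37-fold lower or 1.30-fold higher. The sign of this small difference turned with median centring, without normalization and with array weights.

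miR-196b-5p, of the Hoxa cluster, had raw intensities of 75.9, 203, 252, 325 and 255 in T-C cell samples. In control cell samples they were 200.5, 246, 316, 219 and 189. T-C cell replicate 1 was far below the other 9 arrays and below its own limit of 133. The values of T-C cell replicate 3 and control cell replicate 2 were also below their arrays' limits, 474 and 319. The levels were 7.96 ± 0.63 and 8.27 ± 0.14 (SD, n = 5 each), and the log2 difference was −0.31 (95% interval −0.84 to 0.23, limma adjusted p = 0.614). Without T-C cell replicate 1 it was −0.02, and with the blank mean subtracted to a floor of 1 it was −1.91, where the adjusted p was 0.627. That array also had the highest raw intensity of miR-10a-5p and of miR-10b-5p among the 10 and the lowest normalized level of miR-196a-5p (7.98).

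The miRNAs nearest in level to miR-196b-5p were miR-1839-5p (r = 0.96), miR-139-5p (0.94) and miR-411-3p (0.92). Without the 2 arrays farthest from the median these fell to 0.49, 0.29 and 0.76, so the likeness to the first and second rested largely on those arrays. For miR-196a-5p they were miR-6973a-5p (0.88), miR-6984-5p (0.88) and miR-7048-5p (0.85), which became 0.80, 0.45 and 0.54 without the 2 farthest arrays.

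Members were also compared with each other within each array. miR-10b-5p was dimmer than miR-10a-5p on all 5 control cell arrays and brighter on 2 of 5 T-C cell arrays, replicates 3 and 4. The difference, miR-10b-5p minus miR-10a-5p, averaged 0.05 ± 0.26 among T-C cell arrays and −0.23 ± 0.17 among control arrays (log2, SD, n = 5 each, exact two-sided permutation p = 0.0556, adjusted p = 0.169 over 4 pairs). miR-196b-5p was dimmer than miR-196a-5p on all 10 arrays, with log2 differences of −0.66 ± 0.26 among T-C cell arrays and −0.39 ± 0.23 among control arrays (SD, n = 5 each). The group means of this contrast were −0.27 apart (exact two-sided permutation p = 0.119, adjusted p = 0.169).

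Across the families, miR-10 guide arms were brighter than the miR-196 guide arm compared with them on all 10 arrays. miR-10a-5p minus miR-196a-5p averaged 1.55 ± 0.83 among T-C cell arrays and 1.08 ± 0.52 among control arrays (SD, n = 5 each, exact two-sided permutation p = 0.349, adjusted p = 0.349). miR-10b-5p minus miR-196b-5p was 2.26 ± 1.10 against 1.24 ± 0.45 (SD, n = 5 each, exact two-sided permutation p = 0.127, adjusted p = 0.169). T-C cell replicates 1 and 3 gave the highest values of this contrast, 3.76 and 3.06, and the control cell arrays ran from 0.74 to 1.88. The gaps between the group means of these contrasts moved with single arrays. Leaving out T-C cell replicate 1, the gap of miR-10a-5p minus miR-196a-5p went from 0.46 to 0.12, that of miR-10b-5p minus miR-196b-5p from 1.01 to 0.60, and that of miR-196b-5p minus miR-196a-5p from −0.27 to −0.16. Leaving out T-C cell replicate 3, the gap of miR-10b-5p minus miR-10a-5p went from 0.28 to 0.16, and without control cell replicate 3 that of miR-10a-5p minus miR-196a-5p was 0.28. None of the 4 pairs passed, and 0.00794 is the smallest p that 5 against 5 arrays can give.

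The remaining 3p arms were above the limit on too few arrays to be tested. miR-10a-3p was above the limit on T-C cell replicate 1 and control cell replicate 5 only, with raw intensities of 128 to 254 in T-C cell and 79.1 to 205 in control cell samples. miR-10b-3p was above it on 0 of 10 arrays (82.4 to 243 and 60.2 to 197). miR-196b-3p was above it on 4 arrays, 2 of each group (161 to 254 and 161 to 275). On control cell replicate 5 miR-196b-3p stood at 3.28 times the limit of that array. Array limits differ more than these values do, and these arms were not in the main test. With all miRNAs on the array fitted, the log2 difference of miR-196b-3p was −0.24 (interval −0.51 to 0.04). After normalization 3 of 5 T-C cell arrays lay below every control cell array for it, and the groups overlapped. The differences of miR-10a-3p and miR-10b-3p were 0.04 (interval −0.16 to 0.24) and 0.04 (−0.03 to 0.12). A difference between the groups was neither shown nor excluded for these arms.

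RefSeq places 1 further miRNA gene between the outermost Hox genes of the 4 clusters, Mir615, in an intron of Hoxc5 (miR-615-3p at chr15:103014969-103014990, plus strand). Its arms, miR-615-5p and miR-615-3p, were each above the limit on 2 of 10 arrays and were not tested. Of the miRNAs placed in the clusters, those detected on at least 5 arrays were the 5p arms of miR-10a, miR-10b, miR-196a and miR-196b and the 3p arm of Mir196a-1.

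The sequence relatives of miR-10 in miR-99, miR-100 and miR-125 were read beside it. These belong to the same old family but sit with let-7 genes outside the Hox clusters. The guide arm of miR-100 is 3 edits from miR-10a-5p and that of miR-99a 4, which makes them its nearest probes after miR-10b-5p. Of 11 listed arms 5 were tested, all 5p arms, and 0 passed an adjusted p of 0.05 in limma, while 1 had an unadjusted p under 0.05, against 7.77% and 18.3% of all tested miRNAs. All 5 differences were positive, with a median of 0.50, and 252 of all 476 were positive, with a median of 0.02.

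miR-100-5p had the largest of these differences, 0.58 (95% interval 0.14 to 1.01, limma adjusted p = 0.110), from 9.24 ± 0.21 to 9.81 ± 0.36 (SD, n = 5 each). Those of miR-99a-5p, miR-125b-5p, miR-99b-5p and miR-125a-5p were 0.56, 0.50, 0.36 and 0.35. The differences of miR-10a-5p (0.43) and miR-10b-5p (0.70) were of similar size to these, and their intervals overlapped. No test between them was made. The 4 relatives other than miR-100-5p had intervals that included 0.

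**Figure D4:**
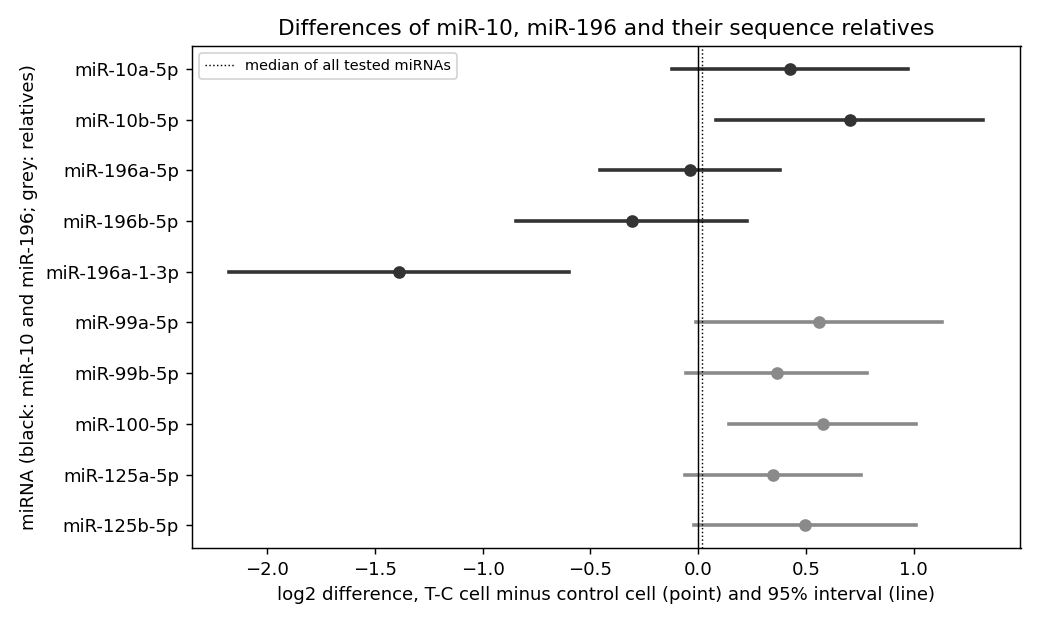
Log2 difference, T-C cell minus control cell (horizontal; points with 95% intervals as lines), for the 5 tested members (black) and the 5 tested relatives (grey), with the median of all tested miRNAs dotted. The intervals of miR-10b-5p, miR-100-5p and miR-196a-1-3p leave out 0, and only that of miR-196a-1-3p lies below it.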

How the data were processed

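Per the labels' protocols, 1 µg of total RNA was given a poly(A) tail and a ligated tag, stained with Cy3 and read on 1-colour arrays by LC Sciences. Per the file headers, the deposited values are the median intensity of each spot and the SD of intensity within it, on a linear scale and not scaled between arrays. The scanner, the software that read the images and the version of miRBase were not given in the sources used here. The mean of the 2 spots on the scale of log2(intensity + 50) was normalized by cyclic loess over 1892 miRNAs. miRNAs detected on at least 5 of 10 arrays were compared with limma 3.58.1 (R 4.3.3, trend, two-sided) and Benjamini-Hochberg adjustment over 476. The filter was kept when arrays were left out. On the scale with 50 added, changes of dim miRNAs are understated. Pairs of members were compared by exact permutation. For likeness, the 3 tested miRNAs with the highest Pearson r over the 10 arrays were named for each tested member. Edits were counted with edlib in Python 3.11.15. miR-142a of the blood list is named miR-142 on the array. Members, lists and pairs were chosen with earlier results of these data known, and leaving out T-C cell replicates 1 and 3 together was added after seeing the data. Alternatives covered normalization, the added constant, background, filter, spots, weights, a replicate block and leaving out each array. The fit was also run on simulated levels with known changes and independent noise. These held no differences in background between arrays and were not normalized, so they do not cover those features of the real arrays. Precision is limited by having 5 arrays a group.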

Additional observations from a re-analysis of the deposited data

Results flagged for a closer look

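In the control cell group, the level of miR-196a-1-3p on replicate 4 stood apart from the other 4 arrays. It was 12.07 on the normalized log2 scale, while the others lay between 12.95 and 13.03. The gap to the nearest array was 0.915 of the range of the group, above the critical value of 0.71 for 5 samples. Without that array the log2 difference was −1.58 (limma adjusted p = 0.0149). Of 18 groups of 5 arrays examined over the 9 members, this was the 1 that exceeded the critical value, and chance flags about 5% of groups.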

How the results depend on the processing

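The number of miRNAs called, 37 in the reported fit, was 14 with median centring, 3 with the blank mean subtracted to a floor of 1, 1 with all miRNAs tested and 8 with detection on at least 3 arrays. It was 1 without T-C cell replicates 1 and 3 together, and 1 to 43 when single arrays were left out. Arrays whose absence moved the count by over 1.5 times were T-C cell replicates 1 (12) and 4 (1) and control cell replicates 1 (3), 2 (1), 3 (1) and 5 (3). The log2 difference of miR-196a-1-3p kept its sign and lost its call with median centring (−1.47), with the blank mean subtracted, with all miRNAs tested and with detection on at least 3 arrays (−1.39 each), and without T-C cell replicates 1 and 3 together (−0.77). It ran from −1.61 to −1.10 when single arrays were left out. The sign of miR-196a-5p turned with median centring (0.0076), without normalization (0.12), with array weights (0.036), without T-C cell replicate 1 (0.14), without control cell replicate 3 (0.028) and without T-C cell replicates 1 and 3 together (0.17). That of miR-196b-5p turned without both of these arrays (0.069). Single arrays left out gave −0.11 to 0.14 for miR-196a-5p. The cause was not tested. miR-10a-5p and miR-10b-5p were positive and did not pass in each of the 25 alternatives (0.13 to 0.64 and 0.31 to 1.01), and the 4 pairs of members kept their signs without passing in each of 19. With the blank mean subtracted, miR-196b-5p minus miR-196a-5p was −1.89 and miR-10b-5p minus miR-196b-5p 2.92. With quantile normalization, no normalization, 200 added and array weights, the difference of miR-196b-5p was −0.17, −0.14, −0.18 and −0.12. miR-196b-5p was not tested with detection on at least 8 arrays. Without normalization the median of all tested miRNAs was 0.14, against 0.02.

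Replicate numbers are shared between the groups in the titles, with no label that pairs them. Correlations of deviations between same-numbered arrays ran from −0.20 to 0.26, and 1 of 10 arrays correlated best with its own number, so the numbers were not taken to pair the samples. With a replicate block the count of calls was 22, and miR-196a-1-3p was at −1.39 (limma adjusted p = 0.0534).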

Other observations

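Over the 10 arrays the level of miR-10b-5p ran opposite to that of miR-196a-1-3p (Pearson r = −0.93, Spearman rho = −0.92), and r was −0.77 without the 2 arrays farthest from the median of miR-10b-5p. The values share the arrays and the difference between the groups, and this pair was picked after the values were seen. Between miR-196a-5p and miR-196b-5p, which differ by a single base, r was 0.83 over all arrays and 0.25 without the 2 farthest. Between the arms of miR-196a, miR-196a-1-3p and miR-196a-5p, r was 0.36 over all arrays and −0.46 without the 2 farthest.

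Among tested miRNAs with ACC at 2 or more places, 14 of 36 fell, and the median log2 difference of the 36 was −0.96. miR-10b-5p is 1 of these 36. By its mean level in the control cell samples, miR-196a-1-3p ranked 17th of the 476 tested miRNAs and was the second brightest of the 30 that fell. By log2 difference miR-196a-1-3p ranked only 19th from the most negative over all 476 tested miRNAs, called or not.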
